A study of Mus musculus with 4 samples.

Results

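Collagen genes were examined in single sorted cells of the mouse ankle synovium, where RNA and surface antibodies had been counted together (CITE-seq). The members were the gene rows named Col, a number, a and a number that held at least 20 UMIs over all libraries. A UMI is a molecular tag that stands for 1 captured transcript. Of 44 such symbols in the deposited gene list, 32 qualified, and 12 fell short. Of these 12, Col26a1, Col6a4 and Col4a6 had 0 UMIs and Col6a5 had the most with 17. Barcodes were kept from 300 genes upward if their mitochondrial UMIs did not exceed 10%. In the 14451 kept barcodes the members summed to 211427 UMIs.

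All 4 libraries came from bone marrow chimeras in which CD45.1 B6 marrow had been given to CD45.2 B6 recipients whose ankles were shielded during irradiation. The baseline library was taken on day 0 with no treatment. The peak, plateau and resolution libraries were taken on days 7, 14 and 56 after arthritis was induced with K/BxN serum. Each stage had 1 library, so differences between stages have no replicate check, and no p-value is given. The labels do not say how many mice went into a library. The sample titles of the 3 arthritis libraries carry the tag "Clo-lip", which baseline lacks, so this tag cannot be told apart from the disease. The sort had selected live CD45+ CD11b+ cells negative for Ly6G, SiglecF, CD64, MHCII, Ly6c and CD177, so fibroblasts were not its target, and their number per library is not a count of the tissue.

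Collagens are secreted proteins built of 3 chains wound into a triple helix. Fibrillar collagens such as types I, III and V form the tensile fibres of joint connective tissue, type IV forms the sheet of basement membranes, type VI forms beaded filaments around cells, and fibril-associated collagens decorate the surface of fibres. In the synovium, fibroblasts of the lining layer, which make the lubricant Prg4, and of the underlying sublining are the known main producers, while bone-resorbing osteoclasts degrade collagen.

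Promoter sequence is shown for 4 members whose patterns differ below: Col1a2 and Col3a1, which stood with the fibroblasts, and Col5a3 and Col27a1, which were also counted in osteoclast-like cells. Each run is the 250 bases before the start site within the gene's RefSeq promoter entry on GRCm38.p6, 5′ to 3′ on the gene's strand. The RefSeq gene spans are chr9:20770050-20815117 for Col5a3 and chr4:63214009-63334991 for Col27a1. The Col5a3 run therefore lies partly, and the Col27a1 run wholly, inside the gene. Both strands were searched for 3 motifs, and capitals mark the matches: TATAAA for the TATA box, CCAAT for the CCAAT box, and GGGCGG for the GC box.
Col1a2, chr6:4505368-4505617, plus strand: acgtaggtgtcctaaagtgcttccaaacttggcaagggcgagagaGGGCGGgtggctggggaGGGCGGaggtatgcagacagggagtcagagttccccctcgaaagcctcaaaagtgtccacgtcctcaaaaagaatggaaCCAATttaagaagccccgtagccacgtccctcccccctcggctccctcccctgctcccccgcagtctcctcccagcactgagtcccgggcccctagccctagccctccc
Col3a1, chr1:45311288-45311537, plus strand: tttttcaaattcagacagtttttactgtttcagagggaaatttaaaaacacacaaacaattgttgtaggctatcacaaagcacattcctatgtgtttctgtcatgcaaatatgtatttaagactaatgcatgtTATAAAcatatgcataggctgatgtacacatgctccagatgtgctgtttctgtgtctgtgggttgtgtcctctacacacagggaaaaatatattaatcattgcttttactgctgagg
Col5a3, chr9:20815068-20815317, minus strand: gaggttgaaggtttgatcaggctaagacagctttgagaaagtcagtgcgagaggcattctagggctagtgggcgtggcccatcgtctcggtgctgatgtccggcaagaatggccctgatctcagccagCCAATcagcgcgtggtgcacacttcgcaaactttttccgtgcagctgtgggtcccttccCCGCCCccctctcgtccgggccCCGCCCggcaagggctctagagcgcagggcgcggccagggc
Col27a1, chr4:63215162-63215411, plus strand: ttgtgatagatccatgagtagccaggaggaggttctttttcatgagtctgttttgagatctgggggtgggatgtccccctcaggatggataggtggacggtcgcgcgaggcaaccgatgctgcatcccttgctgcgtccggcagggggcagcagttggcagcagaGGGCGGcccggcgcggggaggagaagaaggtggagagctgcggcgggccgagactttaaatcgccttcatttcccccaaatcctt
Col1a2 held a CCAAT match 109 bases before the start and 2 GGGCGG matches. Col3a1 held a TATAAA match 117 bases before the start. Col5a3 held a CCAAT match and, on the other strand, 2 GGGCGG matches, and Col27a1 held 1 GGGCGG match. Of 32851 RefSeq promoters of the same length, 12.4% held TATAAA, 33.8% held CCAAT and 32.7% held GGGCGG. The stretch of Col3a1 was 35.2% G or C, against 62% to 62.8% for Col1a2 and Col5a3, 59.6% for Col27a1 and a median of 52.4% over all promoters. An entry was found for 25 of the 32 members.

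From baseline to resolution the libraries held 1071, 5941, 2828 and 4611 kept barcodes with median depths of 7752, 8250, 6782.5 and 4912 gene UMIs. Between 1 and 10 barcode sequences were shared by any pair of libraries. Collagen carriers were defined as kept barcodes with at least 1% of their UMIs in Col1a1, Col1a2, Col3a1 and Dcn, the last coding for decorin, which binds collagen fibres. There were 39, 140, 142 and 194 carriers, 3.64%, 2.36%, 5.02% and 4.21% of the kept barcodes (exact 95% Clopper-Pearson intervals 2.60% to 4.94%, 1.99% to 2.77%, 4.25% to 5.89% and 3.65% to 4.83%). All intervals cover counting error only. Near the threshold, 21 carriers held 1% to 1.1% and 16 other barcodes 0.9% to 1%.

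The carriers had the markers of fibroblasts. All 9 fibroblast markers were detected among the carriers of each library, and 97.9% to 100% of carriers held at least 3 marker UMIs from 2 or more of these genes. Dcn is among these markers and is part of the carrier rule, so this share is set in part by how carriers were chosen. Their median CD11b antibody count was 3, 5, 4 and 1 UMIs from baseline to resolution, against 286, 251, 206 and 115 in the other barcodes. Carriers had fewer antibody UMIs in total, with medians of 503, 334.5, 86.5 and 77.5 against 992, 811, 652 and 380. As a share of antibody UMIs, CD11b was 4.75%, 4.82%, 8.16% and 1.84% in carriers and 28.0%, 31.6%, 30.3% and 35.6% in the other barcodes. CD140a, the Pdgfra protein, had a median of 8, 11, 1 and 1 on carriers and 0 elsewhere. CD90.2 had 100, 129.5, 1 and 12 on carriers and 5, 2, 1 and 1 elsewhere. The antibodies against Podoplanin, CD55 and CD34 had a median of 0 on carriers and elsewhere in each library. In a clustering done without collagen genes, all but 2 of the 515 carriers lay in 2 fibroblast-like clusters. The sublining cluster, with Thy1, Cd34, Pi16 and Sfrp2, held 38, 106, 26 and 194 carriers, and the lining cluster, with Prg4, Clic5 and Htra4, held 1, 34, 114 and 0. By cluster, the carriers of the plateau library were thus mostly lining-type, and those of the other libraries mostly sublining-type. The sublining cluster also met the chondrocyte markers Sox9, Comp and Prelp, and the lining cluster Sox9 and Comp. By 3 UMIs from 2 or more genes of a list the split was less clean. At peak 94 of 140 carriers met the lining list and 125 the sublining list, and at plateau 110 and 79 of 142.

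Some fibroblast barcodes also held myeloid RNA. At least 0.2% of UMIs came from Tyrobp, Fcer1g, Ptprc and Laptm5 in 9 of 39 carriers at baseline, 8 at peak, 6 at plateau and 2 at resolution. Lyz2, a lysozyme gene of myeloid cells, stood at 4512 CPM, the UMIs of a gene scaled to a total of 1000000 gene UMIs, in baseline carriers, against 536, 114 and 101 in the later libraries. No doublet caller was run. In the sublining cluster at baseline only 29 of 47 barcodes were below 0.2%, and they held 4538 of its 9471 collagen UMIs. Lyz2 was 9539 CPM in all 47 and 82.9 CPM in the 29. Stage values for the 2 clusters are therefore given without barcodes at or above 0.2%, which left 29, 110, 27 and 213 in the sublining cluster and 64 and 135 in the lining cluster at peak and plateau. This restriction was chosen after the data had been seen.

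Collagen RNA was concentrated in few barcodes. The 515 carriers were 3.56% of kept barcodes and held 95.4% of all collagen UMIs, with 87.1%, 96.4%, 96.1% and 91.9% in the 4 libraries. Without carriers holding myeloid RNA the share at baseline was 46.7%. Col1a1 and Col1a2, the chains of type I collagen, and Col3a1, the chain of type III, made up 172494 UMIs, or 81.6% of the total. Fibrillar collagens as a family gave 89.9%, beaded filament collagens 4.76%, fibril-associated collagens 3.04%, basement membrane and network collagens 2.28% and the only membrane collagen, Col23a1, 0.0657%. Since the carrier rule uses Col1a1, Col1a2 and Col3a1, their concentration in carriers is a description only.

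**Figure D1:**
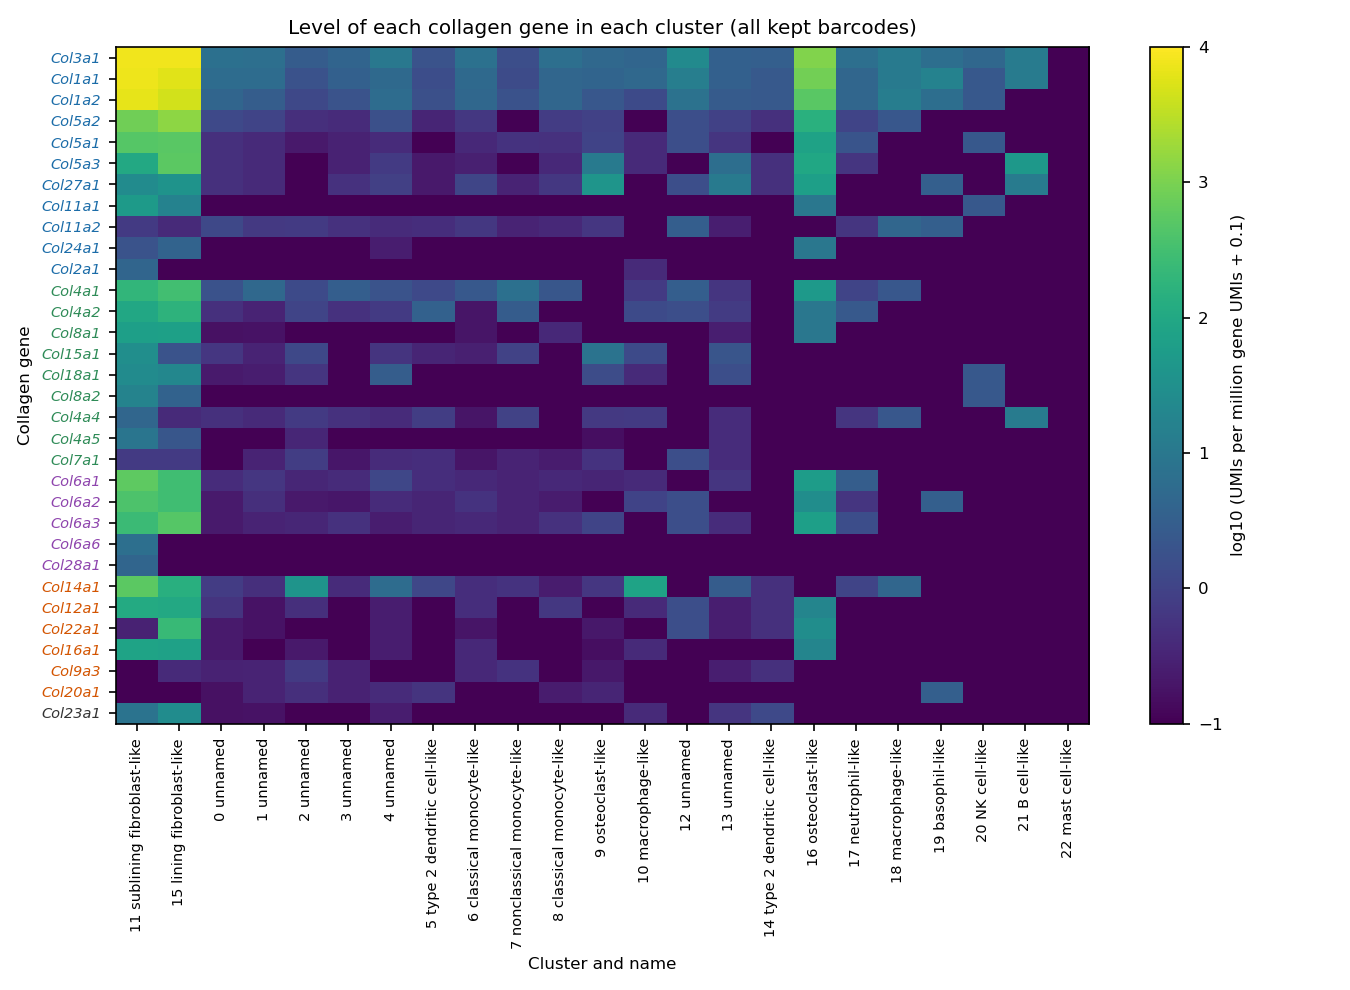
Level of each of the 32 collagen genes (rows, coloured by family) in each of the 23 clusters (columns), as log10 of CPM plus 0.1, over all kept barcodes. The 2 fibroblast-like clusters at the left are high for most genes, while Col14a1 also shows in clusters 2 and 10 and Col27a1 in cluster 9.

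Among the fibrillar members outside the rule, Col5a2, a type V chain that takes part in setting fibre width, was the most abundant with 9079 UMIs, 94.6% of them in carriers. Col5a1, its partner chain, had 4262 UMIs with 95.9% in carriers, and Col5a3, the third type V chain, 2620 with 83.5%. Col11a1, a type XI chain best known from cartilage, had 328 with 99.1%, and Col27a1, a fibrillar collagen also known from cartilage, 1075 with 23.2%. The type VI chains Col6a1, Col6a2 and Col6a3 had 3963, 3044 and 3002 UMIs, with 95.1%, 95.3% and 90.4% in carriers. The type IV chains Col4a1 and Col4a2 had 2231 and 1162, with 77.0% and 80.7%. Of the fibril-associated members, Col14a1 had 3992 with 80.9%, Col12a1 941 with 96.2%, Col22a1 793 with 62.8% and Col16a1 652 with 95.7%. For the remaining network and membrane members with 100 or more UMIs the shares were 91.1% for Col8a1, 99.0% for Col8a2, 39.1% for Col15a1, 68.1% for Col18a1 and 87.8% for Col23a1. In all, 16 members had at least 90% of their UMIs in carriers, 9 had 50% to 90% and 7 had under 50%. The lining cluster held many barcodes below the 1% threshold, and counted by cluster 98.2% of the Col22a1 UMIs were in it.

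The 10 members with fewer than 100 UMIs had 21 to 72 each. Of these, Col4a5, Col6a6, Col24a1, Col2a1 and Col28a1 had 83.3% to 95.5% in carriers. Col4a4, Col7a1, Col11a2 and Col9a3 had 4.35% to 30.6%, and Col20a1 had none of its 21 UMIs there.

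A background level was read in the 13060 barcodes with no UMI of Dcn, Pdgfra or Lum, called no-stroma barcodes. Some of them lay in the fibroblast clusters, and 1 was a carrier. Of their 719 Col3a1, 310 Col4a1 and 121 Col4a2 UMIs, 621, 207 and 81 were outside those clusters, as were all 646 of Col14a1. Summed over members the level in no-stroma barcodes was 19.4, 35.9, 64.0 and 34.1 CPM from baseline to resolution, against 19193, 30067, 33493.5 and 15299 in carriers. Col1a1, Col1a2 and Col3a1 together gave 3.93, 17.0, 22.7 and 4.80 CPM, and 3.84%, 12.7%, 17.0% and 2.25% of these barcodes held a UMI of them. For these 3 chains the peak and plateau libraries were higher than the other 2. The sum over members did not separate peak (34.3 to 37.6) from resolution (31.8 to 36.5), whose intervals overlapped. When these barcodes were ranked by depth and cut into 4 equal groups, the shallowest group at plateau stood at 170 CPM for the 3 chains, against 13 to 20.4 in the others. Cluster 16, osteoclast-like by its markers and with a median of 684 UMIs, had 155 barcodes, of which 153 came from plateau. It held Col3a1 at 1145 and Col1a1 at 871 CPM.

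Compared with their own carrier level, members differed widely in these barcodes. Col1a2, Col1a1 and Col3a1 stood at 0.0471%, 0.0596% and 0.0741% of it, and 14 members were under 0.2%. Another 11 members were at 0.2% to 3%, among them Col14a1 at 1.30%, Col4a1 at 1.17% and Col5a3 at 0.773%. The 6 members at 3% or more were Col15a1 at 9.24%, Col4a4 at 13.9%, Col27a1 at 19.0%, Col7a1 at 36.4%, Col11a2 at 97.6% and Col9a3 at 124%, the last 2 on 68 and 23 UMIs in all.

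**Figure D2:**
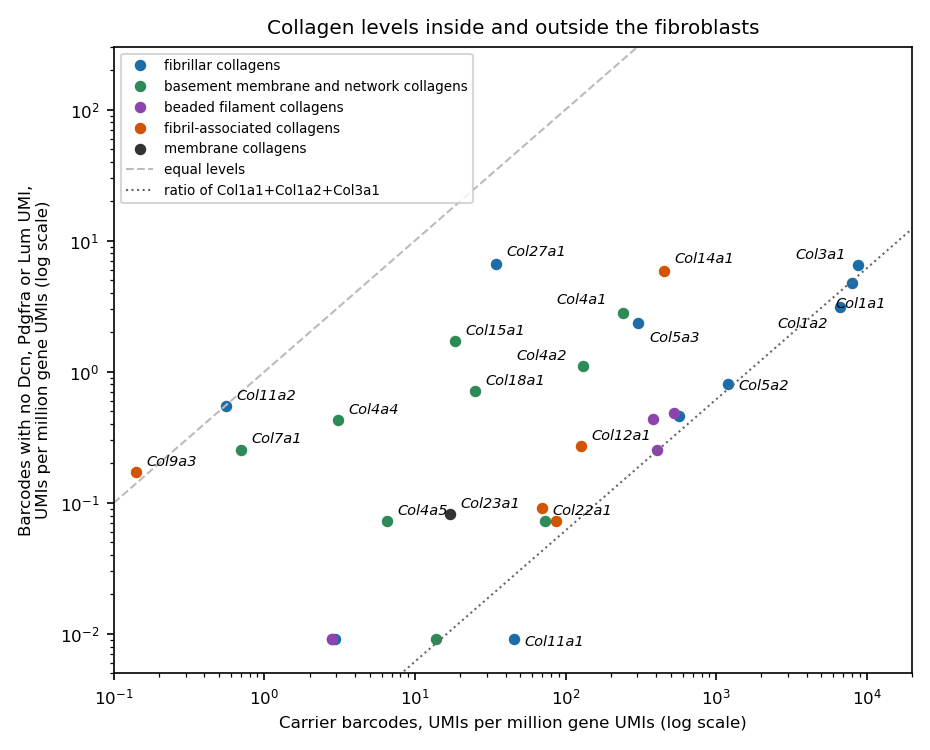
CPM in carriers (x axis, log scale) against barcodes with no Dcn, Pdgfra or Lum UMI (y axis, log scale), 1 point per collagen gene, coloured by family, for the 30 members above 0 in both. The dotted line is the ratio of the 3 rule chains, and Col27a1, Col14a1, Col15a1, Col5a3, Col4a1 and Col18a1 lie well above it.

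Col14a1, a fibril-associated collagen that binds to type I fibres, had its highest levels outside the fibroblast clusters in clusters 10 and 2. In the no-stroma barcodes of cluster 10, macrophage-like and led by Vsig4, Timd4 and Lyve1, it stood at 68.5, 87.5, 98.9 and 82.5 CPM in the 4 libraries, on 60, 22, 26 and 146 UMIs. Col1a1 was at 1.14, 7.96, 7.61 and 6.21 CPM in the same barcodes. In cluster 2, unnamed and led by Aqp1, Fxyd2 and Pf4, Col14a1 stood at 14.8, 36.0, 28.4 and 41.5 CPM and Col1a1 at 1.64, 13.5, 0 and 1.34. Each library showed Col14a1 above Col1a1 in both clusters, with intervals that overlapped in cluster 2 at baseline and peak. For each UMI of the 3 rule chains, cluster 2 held 7.12 of Col14a1, against 0.446 in the non-fibroblast barcodes together. After thinning each barcode to 2000 UMIs, 14.7% (95% interval 11.5% to 18.5%) of cluster 10 and 5.97% of cluster 2 held a Col14a1 UMI, from 37.2% and 13.5% without thinning. In the thinned cells of cluster 7, nonclassical monocyte-like, the share was 0.249%, and in cluster 9, osteoclast-like, 0.177%. Cluster 1, led by Cxcl3 and Cxcl2, had 0 of 1351, which allows a share of up to 0.222%.

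Antibodies against CD45.1 and CD45.2 tell donor from recipient cells. A barcode was assigned where it held at least 10 UMIs of these antibodies and at least 80% of them were of 1 kind, which left most of the 1237 barcodes of cluster 2 at resolution without a class. In that library, CD45.1 barcodes had Col14a1 at 43.8 CPM (34.8 to 54.4, 266 barcodes) and CD45.2 barcodes at 23.14 (15.3 to 33.7, 175 barcodes). The intervals did not overlap, but they hold for this library alone. At plateau the values were 28.3 and 30.5 CPM on 6 and 5 UMIs, which the depth could not separate.

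Col27a1 stood out in the osteoclast-like cells of cluster 9. Of its 727 UMIs in no-stroma barcodes outside the fibroblast clusters, 630 (86.7%) lay in cluster 9, which was led by Oscar, Mmp9 and Acp5. There it was at 36.6, 41.2 and 49.2 CPM at peak, plateau and resolution, on 206, 362 and 29 barcodes, and baseline gave no barcode of this cluster. Its level of 39.8 (36.8 to 43.1) over the libraries was near the 34.7 of the carriers, while Col3a1 in the same cells was at 4.19, 5.25 and 0. With thinning to 2000 UMIs, 8.66% (6.47% to 11.3%) of cluster 9 barcodes held a Col27a1 UMI, from 45.4% before, and none did in clusters 2, 5, 7 and 10. At peak, CD45.1 barcodes of cluster 9 stood at 30.7 CPM (25.4 to 36.7) and CD45.2 barcodes at 49.0 (37.5 to 62.9). At plateau they stood at 41.0 (36.7 to 45.6) and 45.6 (35.1 to 58.4), with overlapping intervals. Cluster 13, led by the cell cycle genes Ube2c and Ccna2, held Col27a1 at 0, 11.8, 24.8 and 3.14 CPM across the libraries.

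**Figure D3:**
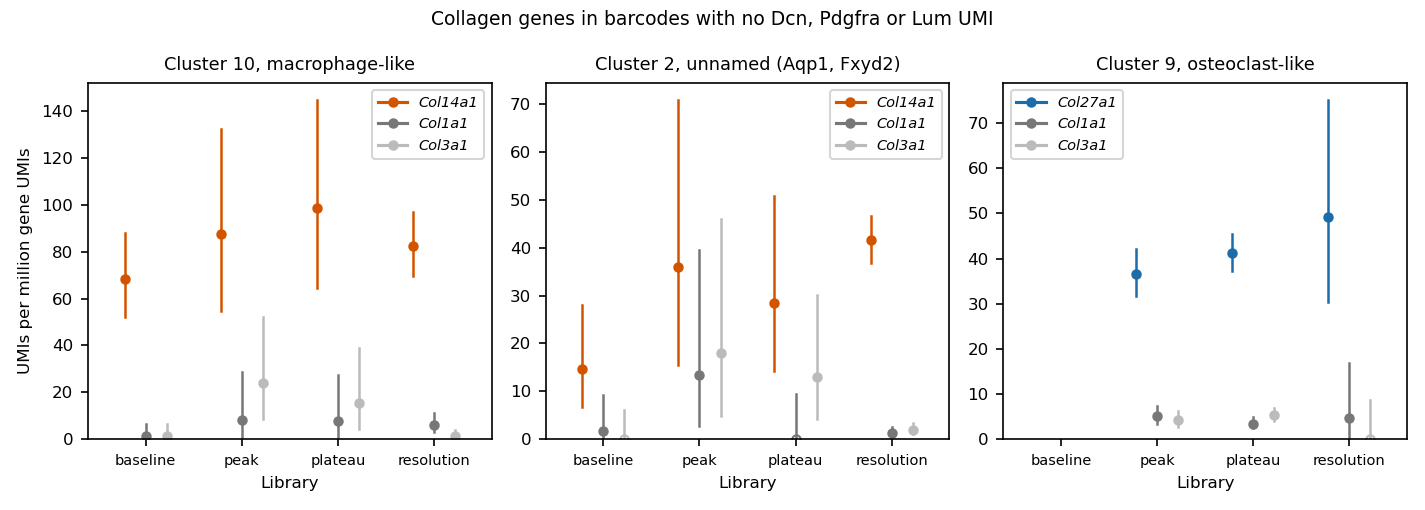
CPM by library in barcodes with no Dcn, Pdgfra or Lum UMI of clusters 10, 2 and 9, with exact 95% Poisson intervals as bars. Col14a1 in clusters 10 and 2, and Col27a1 in cluster 9, lie above Col1a1 and Col3a1 in every library shown, although intervals overlap in cluster 2 at baseline, peak and plateau.

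Other members were also found in cluster 9. Col5a3 was at 20.04, 6.97 and 0 CPM at peak, plateau and resolution, with 110 of its UMIs at peak in 19 of 206 barcodes. Col15a1, a collagen of basement membrane zones, was at 5.28, 9.09 and 7.02 CPM there. Of the UMIs of Col5a3 and Col15a1 in no-stroma barcodes outside the fibroblast clusters, 71.6% and 73.1% lay in cluster 9. Col4a1 gave 0 UMIs in cluster 9 and was at 6.15 CPM in cluster 7 and 4.54 in cluster 1. Col4a2, its usual partner, was at 3.59 CPM (2.40 to 5.16) in cluster 5, where Col4a1 was at 1.11, and at 2.74 (1.41 to 4.78) in cluster 7. In carriers Col4a1 and Col4a2 stood in a ratio of 1.59, 2.06, 1.73 and 1.48. In no-stroma barcodes, some of which lay in the fibroblast clusters, the ratio was 1.59, 4.08 (2.86 to 5.95), 4.20 (2.36 to 7.94) and 1.22. The part of free RNA in the low levels of this paragraph was not tested.

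The 2 fibroblast clusters differed in their collagens. They could be compared at peak, with 64 lining and 110 sublining barcodes, and at plateau, with 135 and 27. A member was called where its level differed at least 2-fold with 20 or more UMIs in both sets together. At peak, 2 of 23 members with enough UMIs were called higher in the lining cluster and 7 lower, where 6.69% and 11% of all genes tested were called. At plateau 4 of 21 were higher and 11 lower, against 13.6% and 8.64% of all genes.

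Col22a1, a fibril-associated collagen known from tissue junctions, was counted in the lining cluster and not in the sublining cluster. It stood at 235 and 221 CPM at peak and plateau in the lining cluster, and at 0 in the sublining cluster of all 4 libraries, so it was at least 177-fold higher at peak and at least 33.6-fold higher at plateau, against a limit of 3 counts in the set. The 9 lining barcodes at resolution, none of them a carrier, held 69 Col22a1 UMIs at 673 CPM. Col5a3 was at 317 and 704 CPM in the lining cluster and at 86.0 and 119 in the sublining cluster, 3.69-fold and 5.93-fold higher. Col4a1 was at 335 and 305 CPM against 261 and 116, and Col4a2 at 170 and 172 against 118 and 83.5, which passed the 2-fold rule at plateau only. With barcodes holding myeloid RNA kept in the sublining cluster, Col4a1 and Col4a2 were at 154 and 99.2 CPM there at plateau. The lining values were then under 2-fold higher, so both calls turned on those barcodes.

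The sublining cluster was higher for Col14a1, at 657 and 789 CPM against 87.0 and 171, which is 7.55-fold and 4.61-fold. Col6a1 was at 538 and 881 against 249 and 337, also called in both libraries, while Col6a3 was at 276 and 387 against 372 and 581, within 2-fold. The ratio of Col6a1 to Col6a3 was 1.95 (1.77 to 2.15) and 2.28 (1.90 to 2.74) in the sublining cluster and 0.669 (0.568 to 0.788) and 0.581 (0.529 to 0.638) in the lining cluster. Type VI collagen was thus counted with unequal chain proportions in the 2 clusters in both libraries. Col1a1 was at 8625 and 19870 CPM in the sublining cluster against 5266 and 6859, 2.90-fold apart at plateau. Col1a2 was called in both libraries, while Col5a2 was close, at 1033 and 1674 against 1256 and 1597. Col15a1 was at 12.4 and 24.2 against 0 and 2.81. Col11a1 was at 56.8 and 185 against 38.0 and 7.97 and rested on few barcodes: 20 and 9 in the sublining cluster and 4 in the lining cluster of either library.

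**Figure D4:**
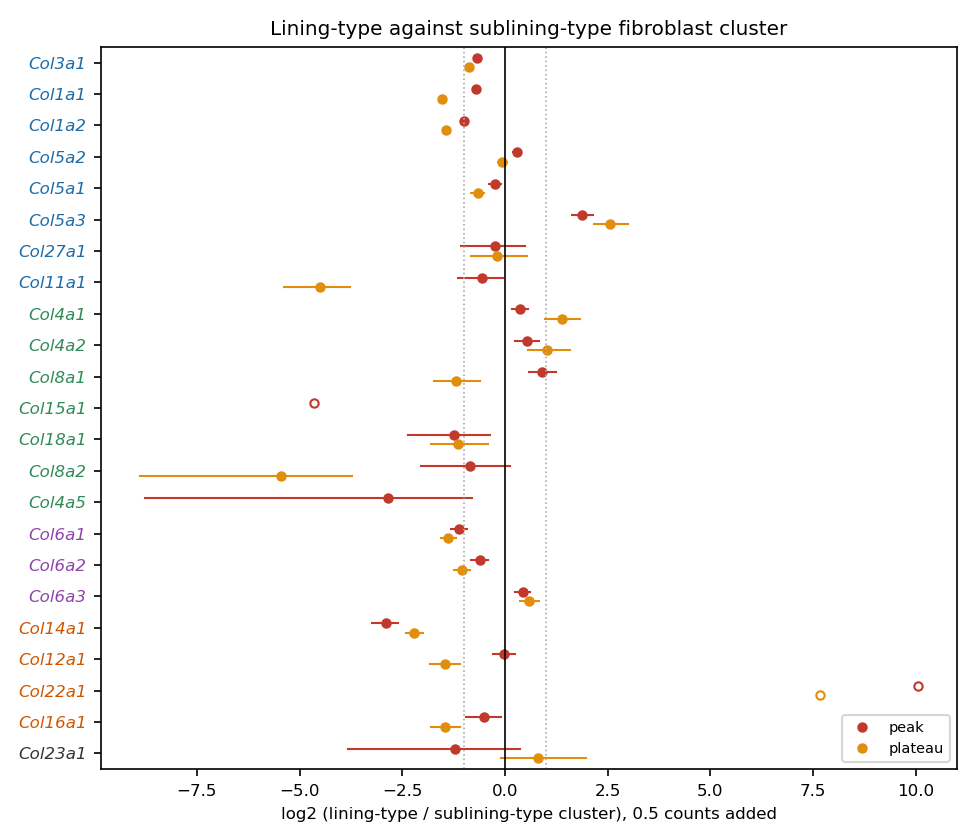
Log2 ratio of the lining to the sublining cluster for each collagen gene with 20 or more UMIs, at peak and plateau, with 95% counting intervals as bars. Open points have 0 UMIs in either cluster, dotted lines mark 2-fold, and Col5a3 and Col22a1 lie to the right while Col14a1 and Col6a1 lie to the left in both libraries.

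Over the stages, the summed level of collagens in carriers was 19193 CPM at baseline, 30067 at peak, 33493.5 at plateau and 15299 at resolution. The peak and plateau libraries were above baseline and resolution. Col1a1, Col1a2 and Col3a1 gave 83.2%, 84.7%, 83.0% and 75.8% of these UMIs. Those chains are part of the carrier rule, so the level in carriers is set in part by how carriers were chosen. Dcn, also in the rule, was at 16907, 10922, 8167 and 20792 CPM in carriers, low where the collagen level was high. The median carrier held 1.41%, 2.22%, 2.53% and 1.08% of its UMIs in collagens, with ranges that overlapped and reached 5.95%, 11.5%, 9.57% and 6.67% at the top. Median carrier depth moved as well, at 9546, 19140, 14991 and 5198 UMIs, and its part in these levels was not tested. In the sublining cluster without myeloid RNA the summed level was 18812, 31082, 57313.5 and 14175 CPM. These comparisons share libraries, so they are not independent of each other.

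The type I and III chains make up most of the summed level and are part of the carrier rule. They cannot be set against that level as a separate result. In carriers Col3a1 was at 5605, 9591, 10887 and 3588 CPM, Col1a1 at 5037, 8418, 9635 and 4480, and Col1a2 at 5331, 7457, 7294 and 3526. In the sublining cluster Col3a1 was at 5385, 10014.5, 16537 and 3310, Col1a1 at 4564, 8625, 19870 and 4117, and Col1a2 at 5020, 7952, 14283 and 3259. The fold from baseline to peak stayed under 2 for each of these chains in both sets. From plateau to resolution in the sublining cluster the levels were 5.00-fold, 4.83-fold and 4.38-fold lower. At plateau the sublining set had 27 barcodes, of which 1 held 19.5% of the Col1a1 UMIs, and Col1a1 was at 17693 without it. The ratio of Col1a1 to Col1a2 there was 0.909 (0.837 to 0.987), 1.08 (1.06 to 1.11), 1.39 (1.35 to 1.44) and 1.26 (1.21 to 1.32). The ratio of Col3a1 to Col1a1 was 1.18 and 1.16 at baseline and peak, and 0.832 and 0.804 at plateau and resolution.

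From baseline to peak, 9 of 23 members with enough UMIs were called higher in carriers and 1 lower, where 11.5% and 13.1% of all genes were. In the sublining cluster without myeloid RNA it was 6 higher and 2 lower of 21, where 12.1% and 12.9% of all genes were. With the barcodes that hold myeloid RNA kept in, 13 of 22 members were called higher and 0 lower, where 12.4% and 14.8% of all genes were called higher and lower, so this count turned on those barcodes. Over the members with enough UMIs the median log2 ratio was 0.64 in the sublining cluster without myeloid RNA and -0.12 over all genes.

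Col12a1, a fibril-associated collagen of tissues under load, had the largest counted difference. It was at 4.15, 180, 222 and 37.6 CPM in the sublining cluster, with 1 UMI at baseline, 43.4-fold (7.75 to 1720) higher at peak than at baseline. Col11a1 gave 0 UMIs at baseline and 56.8, 185 and 42.3 CPM later, at least 4.56-fold higher at peak, where 20 of 110 barcodes held it. Col8a2 and Col8a1, the chains of type VIII, a network collagen, were at 0, 18.6, 50.5 and 16.4 and at 20.7, 74.5, 94.5 and 79.8. Col16a1, a fibril-associated collagen, was at 29.0, 88.7, 228 and 56.4, and Col5a2 at 477, 1033, 1674 and 612, a 2.17-fold (1.80 to 2.64) difference between peak and baseline. Col8a2 had 42 UMIs at peak and 0 at baseline, at least 1.498-fold higher, so its call as 2-fold rests on the 0.5 counts added. These 6 members were also among the 9 called higher in carriers. At baseline Col8a1 had 5 UMIs, of which 1 barcode held 4, and Col16a1 had 7. Col15a1 was lower at peak, at 49.7, 12.4, 24.2 and 65.0 CPM in the sublining cluster, on 12 and 28 UMIs. Col5a3 was at 444, 86.0, 119 and 106, but 1 baseline barcode held 82.2% of its UMIs, and without that barcode baseline stood at 86.2 CPM, so its call as lower rested on 1 cell.

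From peak to plateau the carriers gave 3 members higher and 1 lower of 24, where 9.57% and 5.15% of all genes were. The 3 were Col5a3, at 152 and 600 CPM, Col22a1, at 43.3 and 148, and Col23a1, at 7.10 and 38.3. The carriers of the lining cluster went from 34 of 140 to 114 of 142 between these libraries, and the first 2 genes were higher in that cluster. Col5a3 was also higher within the lining cluster, at 317 and 704 CPM, and Col22a1 was not, at 235 and 221. Col23a1, a membrane collagen, was at 3.00 and 39.8 CPM in the lining cluster, on 3 and 85 UMIs. Within that cluster 4 of 20 members were called higher and 3 lower, against 9.17% and 2.41% of all genes. The 4 were Col5a3, Col23a1, Col27a1 and Col18a1. The 3 lower were Col12a1, at 177 and 80.2 CPM, Col8a1, at 140 and 41.7, and Col11a1, at 38.0 and 7.97. In the sublining cluster 7 of 23 were higher and 1 lower, against 8.23% and 6.26%. The 7 were Col1a1, Col11a1, Col27a1, Col8a2, Col16a1, Col18a1 and Col23a1, and the lower was Col4a1 at 261 and 116 CPM. With the 1 plateau barcode that holds myeloid RNA and those of peak kept in, Col4a1 was at 252 and 154, 1.64-fold apart, and was not called. Over all 4 libraries there Col4a1 was at 166, 261, 116 and 153 CPM and Col4a2 at 112, 118, 83.5 and 99.4. Col27a1 was at 16.6, 25.3, 52.7 and 32.9, Col23a1 at 0, 7.98, 21.97 and 4.70, and Col18a1, a basement membrane collagen, at 29.0, 27.1, 59.3 and 23.48. The Col11a1 UMIs of the plateau library sat in 9 barcodes, of which 1 held 54.8%, and without it the level was 89.98 CPM. At peak 1 barcode held 34.4%, and the level was 37.8 CPM without that one.

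From plateau to resolution, carriers gave 2 members higher and 10 lower of 23, where 10.8% and 12.9% of all genes were. The sublining cluster gave 2 higher and 10 lower of 21, where 11.9% and 7.41% were. Besides the type I and III chains, the lower members in the sublining cluster were Col5a1, which was at 435, 617, 927 and 253 CPM over the libraries, Col5a2, Col11a1, Col8a2, Col16a1, Col12a1 and Col18a1. The type VI chains were within 2-fold in that cluster, with Col6a1 at 651, 538, 881 and 704 CPM from baseline to resolution, Col6a2 at 456, 384, 668 and 473, and Col6a3 at 290, 276, 387 and 252. In carriers Col6a3 was called lower, from 545 to 267 CPM, as were Col5a3, from 600 to 110, Col22a1, from 148 to 0, and Col23a1, from 38.3 to 4.27. Carriers of the lining cluster went from 114 of 142 at plateau to 0 of 194 at resolution, and the part of this shift in the carrier calls was not tested. Col14a1 in the sublining cluster was at 634, 657, 789 and 434, also within 2-fold at each step. The beaded filament collagens, the type VI chains with Col28a1, made up 6.51%, 3.91%, 4.18% and 10.0% of collagen UMIs in carriers, most at resolution, when the type I and III chains were lowest.

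At resolution against baseline, 7 of 21 members were higher in carriers and 1 lower, where 8.61% and 5.74% of all genes were. In the sublining cluster 5 of 21 were higher and 1 lower, where 9.07% and 3.94% were. For 2 of these 5, Col8a2 and Col2a1, the limit of 3 counts at baseline gives a bound under 2-fold, so those calls rest on the 0.5 counts added for log2. Col12a1 was 9.06-fold (1.55 to 365) higher, and Col8a1 3.85-fold (1.60 to 12.1). Col11a1 was at least 3.399-fold higher, while Col8a2 and Col2a1 had 21 UMIs each at resolution and 0 at baseline, where their bounds were at least 1.32-fold. The member called lower was Col5a3, which the 1 baseline barcode decided. The median log2 ratio of the members with enough UMIs was 0.05, against -0.0028 over all genes.

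**Figure D5:**
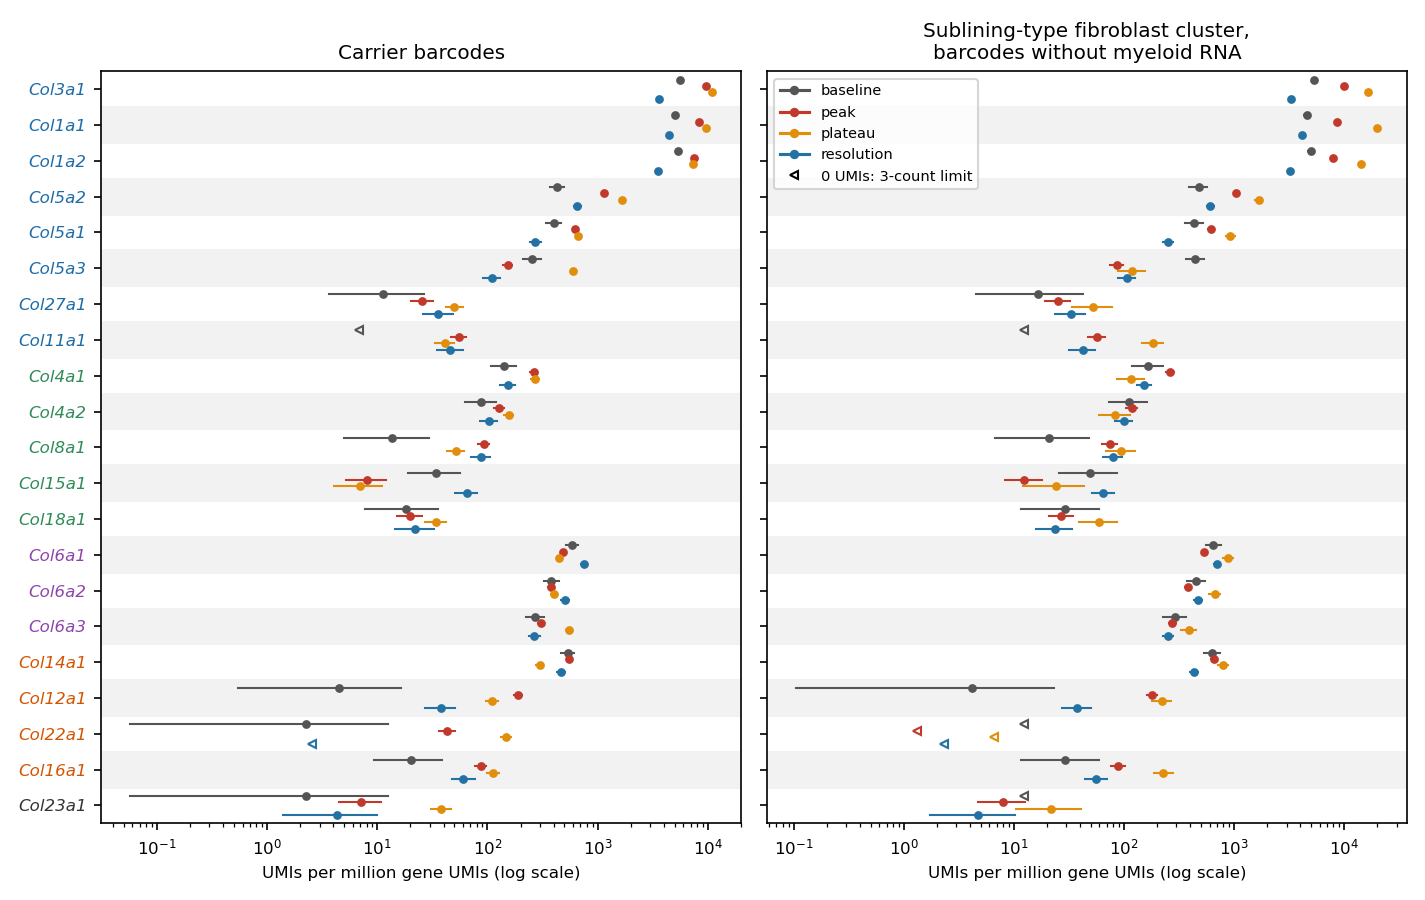
CPM (log scale) of the 21 collagen genes with 100 or more UMIs in carriers or outside them, coloured by library, in carriers at the left and in the sublining cluster without myeloid RNA at the right, with exact 95% Poisson intervals as bars. Open triangles mark 0 UMIs at the limit of 3 counts, and Col12a1 runs from 4.15 at baseline to 180 and 222 at peak and plateau and 37.6 at resolution at the right.

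Col11a1 and Col2a1, both known from cartilage, were counted mostly in a small set of carriers. Col27a1 and Col11a2, also known from cartilage, were not: 65.8% of Col27a1 UMIs lay in cluster 9, and 5.88% of Col11a2 UMIs in the fibroblast clusters. Tendon cell markers (at least 3 UMIs from 2 or more genes of the list) were held by 0, 29, 24 and 32 carriers from baseline to resolution. These held 139 of the 170 Col11a1 UMIs of carriers at peak, 100 of 101 at plateau and 42 of 54 at resolution. Their Col11a1 level was 135, 156 and 148 CPM, against 15, 0.551 and 13.5 in the other carriers. They also held all 21 Col2a1 UMIs of the resolution carriers, 74.0 CPM, in 4 barcodes, and Col2a1, the main collagen of hyaline cartilage, gave 0 UMIs in the carriers of the other 3 libraries. Col12a1 was at 395, 259 and 98.6 CPM in these barcodes and at 87.6, 57.9 and 18.0 in the other carriers. Since a marker set needs UMIs to be met, it depends on depth, and at baseline Fmod, Kera, Mkx and Cilp2 of the list were at 0 in the 39 carriers. Chondrocyte markers were met by 10, 81, 34 and 74 carriers, more than held tendon cell markers in each library. Endothelial markers were met by 0 carriers, and mural cell markers by 0, 12, 4 and 0. Osteoblast markers were met by 1, 10, 28 and 1 carriers, and Dmp1 of that list was at 0 in the carriers of all libraries.

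Genes that make and process collagen were described in the sublining cluster without myeloid RNA, by lists chosen with earlier results known. Of the genes for modification and export, 4 of 19 with enough UMIs were called higher at peak than at baseline, where 12.1% of all genes were, and 2 higher at plateau than at peak, where 8.23% were. At resolution 11 of 19 were lower than at plateau, against 7.41% of all genes. With barcodes holding myeloid RNA kept in, 9 of 19 were higher at peak than at baseline, where 12.4% of all genes were. Serpinh1, the collagen chaperone, was at 311, 1243, 1362 and 345 CPM, and Ppib, a prolyl isomerase, at 1189.7, 1579, 1779 and 824. Plod2, a lysyl hydroxylase, was at 37.3, 126, 178 and 100.2, and P4ha3, a prolyl hydroxylase subunit, at 12.4, 72.7, 101 and 20.4. All 4 were highest at plateau in this set of 27 plateau barcodes. In carriers Serpinh1 was at 269, 1316, 1072 and 364, Ppib at 1048, 1594, 1367 and 845, and P4ha3 at 9.06, 67.1, 49.3 and 22.2, each highest at peak. Plod2 was at 24.9, 211, 415 and 105 in carriers, highest at plateau. Of the genes for maturation and cross-linking, 2 of 8 were higher and 2 lower at peak than at baseline, where 12.1% and 12.9% of all genes were, and the median log2 ratio of the list was 0.13. With barcodes holding myeloid RNA kept in it was 5 higher and 1 lower of 9, where 12.4% and 14.8% of all genes were. Lox, the cross-linking enzyme, was at 120.2, 632, 666 and 198 CPM. Pcolce, an enhancer of procollagen cleavage, was at 1339, 1745, 1226 and 737, and Pcolce2, its relative, was at 1181, 298, 305 and 836, low in the 2 libraries where Lox was high.

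Of the collagen-binding matrix proteins, 6 of 15 were higher and 2 lower at peak than at baseline, where 12.1% and 12.9% of all genes were. At resolution against plateau 2 of 16 were higher and 7 lower, where 11.9% and 7.41% of all genes were. The 2 lower at peak and the 2 higher at resolution are near the share over all genes. Sparc, a collagen-binding glycoprotein, was at 6719.8, 11749.7 and 18799.9 CPM from baseline to plateau and at 4925 at resolution. Dcn, which is part of the carrier rule, was at 20263, 11957, 12012 and 19152, low at peak and plateau. With barcodes holding myeloid RNA kept in it was at 10934, 11917.5, 11545 and 18075, and baseline was then not above peak. Fmod, a fibril-binding proteoglycan of tendon, was at 0, 128, 226 and 265, and Tnxb, tenascin X, at 792, 313, 327 and 659. Of the genes for collagen breakdown, 2 of 9 were higher and 1 lower at peak than at baseline, against 12.1% and 12.9% of all genes. With barcodes holding myeloid RNA kept in, 6 of 9 were higher and 0 lower, against 12.4% and 14.8% of all genes. Timp1, an inhibitor of metalloproteinases, was at 112, 2059, 1032 and 197 CPM, and Timp2, a related inhibitor, at 2326, 1297, 2054 and 1908. Mmp9, a gelatinase, was at 0, 6.21, 19.8 and 0. Of the collagen receptors, 1 of 4 was higher and 1 lower at peak than at baseline, against 12.1% and 12.9% of all genes. With barcodes holding myeloid RNA kept in, 0 of 4 were called in either direction, against 12.4% and 14.8% of all genes. Among the receptors were Itgb1, the shared integrin chain, at 448, 328, 292 and 438 and Ddr2, a collagen-binding kinase, at 228, 83.4, 134 and 158. The integrin chains Itga10 and Itga2 were low, at 0, 0.443, 2.20 and 14.1 and at 24.9, 1.33, 19.8 and 11.7 CPM.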

How the data were processed

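RNA and antibody tags were measured in 4 libraries, 1 for each stage. The deposited values are unnormalized counts of UMIs, made by the authors with Cell Ranger 6.1.2 on mm10, while Seurat 4.4.0 is listed without a step, per the submitters' processing notes. Of 15501 deposited barcodes, 14451 had 300 genes or more and no more than 10% mitochondrial UMIs and were used. Kept barcodes had library medians of 4912 to 8250 gene UMIs. The collagen genes and all gene lists were chosen with earlier results of these data known.

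Levels are CPM (scaled to 1000000 gene UMIs) from UMIs summed over barcodes. Intervals are exact 95% Poisson (levels), Clopper-Pearson (shares) or conditional binomial (ratios) and cover counting error only. A ratio was called at 2-fold or more with at least 20 UMIs in both sets together, and 0.5 counts were added for log2. A 0 was bounded at 3 counts. Clusters came from Scanpy 1.11.5 (Leiden, leidenalg 0.10.2) without collagen genes and antibodies, and were named by at least 3 markers. Lining and sublining markers were counted as fibroblast markers, a choice made after seeing the data. Doublets were not called. Members with at least 100 UMIs in or outside carriers are given by library, and up to 4 genes per pathway list are named, 2 by level and 2 by largest change. TMM totals came from edgeR 4.0.16. The statistics were tested on simulated data.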

Additional observations from a re-analysis of the deposited data

Results flagged for a closer look

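Col11a1 moved in opposite directions between plateau and peak in the 2 fibroblast clusters without myeloid RNA. Its log2 ratio of plateau to peak was 1.70 in the sublining cluster, on 84 and 128 UMIs, and -2.23 in the lining cluster, on 17 and 38 UMIs. With 1 library per stage this difference was not tested. The UMIs sat in 9 and 20 barcodes of the sublining cluster and in 4 and 4 of the lining cluster, and the largest barcode held 54.8%, 34.4%, 52.9% and 55.3% of them.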

How the results depend on the processing

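Of 236 values recomputed for the main results, 130 moved by less than their counting interval, or by less than 1.5 times for counts, and 106 moved by more. Values are given below in the order baseline, peak, plateau, resolution unless libraries are named. With 1 library per stage no replicate could be left out. No paired analysis was possible because each stage has 1 library and its replicate number is only a name. Depth limits members with few UMIs. The counts of called members below are given without the number tested and the share of all genes called under each setting. Both can change with the setting, so these counts say only how many members were called.

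With carriers taken at 0.5% of UMIs, their collagen level was 13335.5, 28817, 31453 and 13907 CPM and their share of collagen UMIs 97.1%, 97.7%, 97.9% and 94.3% (97.4% in all), carriers were 6.75% of plateau barcodes, and 0 members were called lower at resolution than at baseline. At 3%, carriers were 2.05%, 1.38%, 2.30% and 2.15% of barcodes, the level was 25227, 37931, 47216 and 21463, the share 59.3%, 74.7%, 70.6% and 66.5% (71.6% in all), 5 members were higher and 0 lower at plateau than at peak, and 0 lower at resolution than at baseline. With carriers chosen without collagens the level was 18647.5, 28336, 31607 and 13362, the share 80.4%, 88.1%, 97.8% and 89.5% (91.8% in all), and 0 members were lower at plateau than at peak or at resolution than at baseline. The Col5a3 log2 ratio of resolution to baseline reversed to 0.51 at 3% and to 0.59 without collagens, and the cause was not tested.

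With all deposited barcodes the no-stroma level was 40.2 at peak and 39.3 at resolution, the carrier level 33209 at plateau, and the share 95.9% at peak, 95.8% at plateau and 95.1% in all. Under a stricter filter (1000 genes or more, mitochondrial UMIs up to 5%) the carrier level was 18639 at baseline and 35020.2 at plateau, the no-stroma level 30.05 at peak and 48.3 at plateau, and the share 96.9%, 96.8% and 95.9% for peak, plateau and all. No-stroma barcodes by the longer stromal list gave 29.6 at peak and 56.95 at plateau, and all barcodes under 1% gave 109, 62.7, 123 and 61.3. With each carrier weighted equally the level was 18529.7, 26438 and 29482.5 from baseline to plateau, 2 members were lower at plateau than at peak, 4 higher at resolution than at plateau, and 0 lower at resolution than at baseline. Subtracting the ambient level gave 2 members lower at plateau than at peak, and TMM totals gave 3. Thinning to 2000 UMIs gave shares of 92.6%, 94.3%, 95.2% and 92.3% (94.0% in all). Scaled by all member UMIs, 2 members were lower at peak than at baseline, 2 lower at plateau than at peak, 8 higher and 3 lower at resolution than at plateau, and 0 lower at resolution than at baseline. This scaling removes the shared change by construction, and the log2 ratios of resolution to plateau reversed to 0.10 for Col6a3, 0.082 for Col1a2 and 0.026 for Col1a1.

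Further alternatives were chosen after seeing the data. Carriers of the sublining cluster alone gave 32299 at peak and 57436 at plateau, 2 members lower at peak than at baseline, and 8 higher and 0 lower at plateau than at peak. Without carriers holding myeloid RNA the level was 18182, 30397 and 33929.8 from baseline to plateau, the share 46.7%, 91.2% and 94.9% (90.7% in all), and 2 members were lower at peak than at baseline. The sublining cluster without myeloid RNA gave 31082, 57313.5 and 14175 from peak to resolution, 2 members lower at peak than at baseline and 7 higher at plateau than at peak. All barcodes of the 2 fibroblast clusters gave 12714, 27257.5, 31087 and 12547, shares of 97.4%, 98.2%, 97.8% and 95.8% (97.8% in all), 3.30%, 6.51% and 5.07% of barcodes from peak to resolution, and 0 members lower at resolution than at baseline.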
